A study of Rattus norvegicus with 22 samples.

Results

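The names of the miR-182 cluster, miR-7 and miR-375 were followed across 22 small RNA libraries of rat hippocampus. The rule took every microRNA (miRNA) name of miR-182, miR-183, miR-96, miR-7 or miR-375, in any copy or arm, without let-7. It found 7 of 468 names, namely rno-miR-182, rno-miR-183-5p, rno-miR-96-5p, rno-miR-7a-5p, rno-miR-7a-1-3p, rno-miR-7a-2-3p and rno-miR-375-3p. The prefix for rat is left out where a name recurs. The rats were male, 14 weeks old and of the outbred strain Long Evans. 11 libraries came from rats injected under the skin each day for 21 days with chlorpyrifos (CPF, 10 mg/kg), an organophosphate insecticide that inhibits acetylcholinesterase. The other 11 came from vehicle controls that received peanut oil for the same 21 days. The labels call the tissue hippocampus and place the RNA extraction in its CA1 region. Some rats went through fear conditioning, and no label ties a library to the trained or the untrained cohort.

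miRNAs are short RNAs that guide Argonaute proteins to transcripts, and bases 2 to 8, the seed, do most of the pairing. miR-183, miR-96 and miR-182 are neighbouring genes known from retina, hair cells and other sensory neurons, and are made from a shared precursor. miR-7 is known as a neuroendocrine miRNA of hypothalamus and pituitary, and in brain it is bound by the circular RNA Cdr1as. miR-375 is best known from pancreatic islets and pituitary, where it restrains hormone secretion.

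The mature sequences show how the names relate. They are given 5′ to 3′ as RefSeq lists them for the build GRCr8, with the seed in capitals, and all 7 names had an entry.
miR-182: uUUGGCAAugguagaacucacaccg
miR-96-5p: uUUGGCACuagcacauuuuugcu
miR-183-5p: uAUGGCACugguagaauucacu
miR-7a-5p: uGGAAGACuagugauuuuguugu
miR-7a-1-3p: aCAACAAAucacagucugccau
miR-7a-2-3p: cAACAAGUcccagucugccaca
miR-375-3p: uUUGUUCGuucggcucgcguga
Counted from 1 at the 5′ end, miR-182 and miR-96-5p differ within their first 8 bases by A8C alone. miR-182 and miR-183-5p differ there by U2A and A8C. The 7 seeds are all different, and none of the 410 listed names with a RefSeq sequence shares a seed with another name in this set.

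The hairpin of miR-7a-1 is shown because its arms behaved unequally in these data. Capitals mark first miR-7a-5p and then miR-7a-1-3p.
Mir7-1 hairpin: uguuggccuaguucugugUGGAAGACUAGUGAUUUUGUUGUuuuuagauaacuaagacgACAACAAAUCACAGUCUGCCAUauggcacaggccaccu
In the RefSeq gene table Mir7-1 lies within Hnrnpk, which encodes an RNA-binding protein, and Mir375 overlaps Cryba2, a lens crystallin gene. Mir182, Mir96 and Mir183 follow each other, and Mir183 overlaps another miRNA gene, Mir3553, on the opposite strand. No coordinates are given, since that table is of another build than the rn4 named in the submitters' processing notes.

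Levels are in RPM, the reads of a name scaled to a common total of reads assigned to miRNAs. The libraries were shallow, with 47844 to 94980 recovered reads each, so that 1 read was worth 10.5 to 20.9 RPM. 3 reads, or 31.6 to 62.7 RPM, were taken as the floor below which a level was not read. Floors cover counting error only, because reads without molecular identifiers are not independent molecules. 3 libraries stood apart from the rest. In CPF replicates 7, 8 and 9 a list of choroid plexus and ependyma miRNAs, the linings of the ventricles, summed to 2192 to 7922 RPM, against 567 to 1211 RPM in the other 19. The labels name no animals, so the spread between libraries may be partly technical. In bulk tissue, fewer cells of a type and less RNA per cell cannot be told apart.

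rno-miR-182 was the most abundant name of the set, with a mean of 1221 ± 710 RPM (SD, n = 22), and ranked 48 of 468. It was present in 22 of 22 libraries, at 85.5 reads on average. The control libraries ran from 493 RPM through a median of 942 to 2091. The CPF libraries ran from 624 RPM through a median of 1140 to 3532. The groups overlapped over most of this range, and 2 CPF libraries, replicates 8 and 9, lay above the highest control. These are libraries with high choroid plexus and ependyma miRNAs.

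Between groups miR-182 averaged 1040 ± 444 RPM in control and 1401 ± 888 in CPF (SD, n = 11 each). Its fold change on the log2(RPM + 1) scale was 1.25 (95% CI 0.87 to 1.78), and it did not pass limma's test across all miRNAs (log2 fold change 0.32, SE 0.253, adjusted p = 0.806). 6 of 11 CPF libraries lay above the control median. CPF replicates 7, 8 and 9 were singled out by values in these data and include the highest CPF values of miR-182. Leaving them out therefore had to lower the CPF mean. Without them the log2 fold change was near 0, at -0.050 (95% CI -0.49 to 0.39, limma adjusted p = 0.997). The CPF mean was then 986 ± 366 RPM (SD, n = 8).

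miR-96-5p, the neighbour whose seed differs from that of miR-182 by a single base, was all but absent. It was listed above 0 in 2 of 22 libraries, with 1 read in control replicate 9 and 1 read in CPF replicate 7. No comparison could be made at this depth. miR-183-5p was listed at 0 in all 22 libraries. Over the 1595079 recovered reads of the series, a count of 0 allows up to 1.88 RPM. This bound holds only where the reads of a name are listed under it. It is not read for miR-183-5p, whose reads cannot be told apart from those of its opposite-strand partner, described next. 14 of the 468 names were listed at 0 in every library, or in every library that held them.

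The opposite-strand partner of miR-183-5p, miR-3553, was listed at measurable levels. It is named here because it was among the miRNAs most like miR-182 across libraries.
miR-3553: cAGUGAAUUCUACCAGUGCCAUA
The capitals mark the 22 bases that are the exact reverse complement of miR-183-5p, over its whole length. The authors' counting is not stated to use strand, so reads of miR-183-5p and of miR-3553 cannot be told apart in these values. miR-3553 averaged 181 ± 168 RPM in control and 164 ± 76.3 in CPF (SD, n = 11 each). Control libraries ran from 14.97 through a median of 130 to 520 RPM, and CPF libraries from 66.3 through 147 to 281. The control range enclosed the CPF range. The direction depended on the scale, since the mean RPM was lower in CPF while the median and the mean of log2(RPM + 1) were higher. The difference did not pass (log2 fold change 0.37, 95% CI -0.57 to 1.32, limma adjusted p = 0.954).

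Across the 22 libraries miR-3553 moved with miR-182. Pearson's r of the deviations of log2(RPM + 1) from the group means was 0.61. This r is a description without a test, since miR-3553 was picked by it among 166 miRNAs compared. It is not particular to miR-182, since miR-3553 had the same rounded r with miR-7a-1-3p. The r with miR-182 was 0.71 among the control libraries, 0.70 among the CPF libraries and 0.60 without CPF replicates 7, 8 and 9. miR-3553 stood at 2.04 to 55.4% of the RPM of miR-182 in the same library. The highest value came from control replicate 7, with 520 RPM of miR-3553 beside 938 RPM of miR-182.

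**Figure D1:**
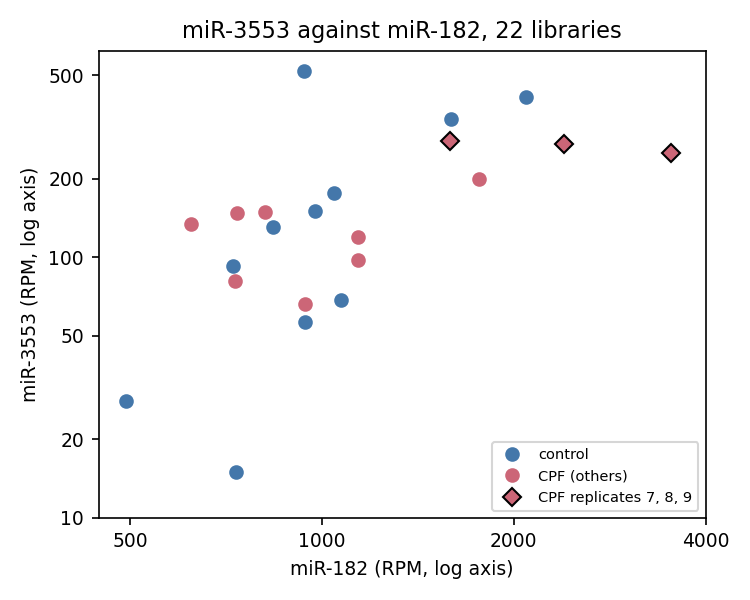
Level of miR-3553 (RPM, log axis) against that of miR-182 (RPM, log axis), 1 point per library in 22 libraries. Libraries high in miR-182 were mostly high in miR-3553 (r = 0.61), including CPF replicates 7, 8 and 9 (diamonds), where miR-3553 stood at 251 to 281 RPM.

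The other miRNAs most like miR-182 were miR-34c-5p (r = 0.67), miR-1298 (r = 0.56), miR-21-3p (r = 0.56) and miR-204-5p (r = 0.53), among 166 compared. Without CPF replicates 7, 8 and 9 the r of miR-34c-5p was 0.23, that of miR-1298 -0.09 and that of miR-204-5p -0.08. These 3 belong to the choroid plexus and ependyma list. miR-21-3p, the minor arm of the glial and inflammatory miRNA miR-21, kept an r of 0.58 there, and 0.78 among the control libraries.

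miR-7 was represented almost wholly by the minor arm of its first gene. rno-miR-7a-1-3p averaged 260.4 ± 61.2 RPM (SD, n = 22) and ranked 113 of 468, with 18.8 reads per library. miR-7a-5p, the arm usually taken as the active strand, averaged 7.39 ± 11.5 RPM. It was above 0 in 8 of 22 libraries and reached the floor of 3 reads in 1 library, CPF replicate 8. miR-7a-1-3p was above it in 22 of 22 libraries, with 414 reads against 12 in the whole series. No fold is given, since miR-7a-5p was under the floor on average. miR-7a-5p is made by both miR-7a genes and stood on 2 rows of each file, which were summed. How the authors treated reads that match both genes is not given in the sources used here. Among 127 hairpins of other miRNAs with both arms listed, the 3p arm had the higher or an equal mean in 66, with miR-743b the equal case.

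miR-7a-1-3p also had the smallest relative spread of the set. Its SD was 23.5% of the mean over 22 libraries, against 58.1% for miR-182 and 75.2% for miR-375-3p. These spreads include counting error, which is relatively larger at fewer reads (18.8, 85.5 and 5.55 per library in this order). They therefore do not rank how steady the names were apart from counting. The control libraries ran from 169 RPM through a median of 274 to 365. The CPF libraries ran from 199 through 245 to 365. The CPF values lay inside the control range, and 2 of 11 were above the control median. The means were 270 ± 74.0 and 251 ± 46.8 RPM (SD, n = 11 each). The log2 fold change was -0.07 (95% CI -0.39 to 0.25, SE 0.158, limma adjusted p = 0.958), an interval that corresponds to folds of 0.76 to 1.19. CPF replicates 7, 8 and 9 stood at 254, 210 and 209 RPM, within the range of the other libraries.

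The minor arm of the second miR-7a gene, miR-7a-2-3p, was near the limit of detection. Control libraries ran from 0 through a median of 26.4 to 56.3 RPM, and CPF libraries from 0 through 24.5 to 42.1. Only 5 of 22 libraries reached the floor, and the means of 26.2 ± 18.3 and 21.3 ± 14.1 RPM (SD, n = 11 each) were both under it. It entered the test and did not pass (limma adjusted p = 0.972), and no fold is given. miR-7a-1-3p was higher than miR-7a-2-3p in 22 of 22 libraries, with 414 reads against 38 in all. miR-671, a miRNA that cuts the miR-7 partner Cdr1as, is listed without an arm. It was also under the floor, at 19.9 ± 15.4 RPM in control and 20.7 ± 18.2 in CPF (SD, n = 11 each, limma adjusted p = 0.954). Whether the listed arm is the one that cuts was not checked.

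By within-group deviations, the miRNAs most like miR-7a-1-3p were miR-3553 (r = 0.61), miR-199a-3p (r = 0.54), miR-125a-5p (r = 0.53), miR-30a-5p (r = 0.51) and miR-21-3p (r = 0.50), over 22 libraries. The r with miR-3553 was 0.76 among control libraries and 0.06 among CPF libraries. That with miR-199a-3p was 0.58 and 0.53.

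rno-miR-375-3p was low, with a mean of 78.7 ± 59.1 RPM (SD, n = 22), a rank of 166 and 5.55 reads per library. Its spread relative to the mean was larger than that of miR-182 or miR-7a-1-3p. At so few reads counting error makes up more of the spread, and its share was not separated. It was at 0 in 1 library, control replicate 5, and at or above the floor in 17. Control libraries ran from 0 through a median of 74.9 to 127 RPM. CPF libraries ran from 27.0 through 73.4 to 210. The medians were nearly equal, and 3 CPF libraries lay above the highest control, replicates 8, 9 and 2 at 210, 209 and 165 RPM. Replicate 2 is not among the libraries high in choroid plexus and ependyma miRNAs.

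The means were 57.2 ± 40.1 RPM in control and 100.1 ± 68.7 in CPF (SD, n = 11 each), or 4.1 and 7.0 reads per library. The log2 fold change was 1.197 (95% CI -0.08 to 2.47, SE 0.624) and did not pass (limma adjusted p = 0.769). Its size depends on the value added before the logarithm, and on control replicate 5, without which it was 0.68 (limma adjusted p = 0.769). With 14 RPM added, about the worth of a single read, it was 0.73 (95% CI -0.03 to 1.502). DESeq2 on recovered reads gave 0.79 (adjusted p = 0.991). Without CPF replicates 7, 8 and 9 it was 0.78 (95% CI -0.64 to 2.20), with a CPF mean of 70.2 ± 47.3 RPM (SD, n = 8).

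The mean levels stood in the order miR-182, miR-7a-1-3p, miR-375-3p, miR-7a-2-3p, miR-7a-5p, miR-96-5p and miR-183-5p. miR-182 was above miR-7a-1-3p in 22 of 22 libraries, by 2.33 to 16.9 times. miR-7a-1-3p was above miR-375-3p in 20 and equal to it in 2, CPF replicates 8 and 9. miR-375-3p was above miR-7a-2-3p in 18 of 22. The last 3 names overlapped at 0 and cannot be ordered at this depth. For miR-183-5p the place is only that of its listed 0, since its reads cannot be told apart from those of miR-3553.

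**Figure D2:**
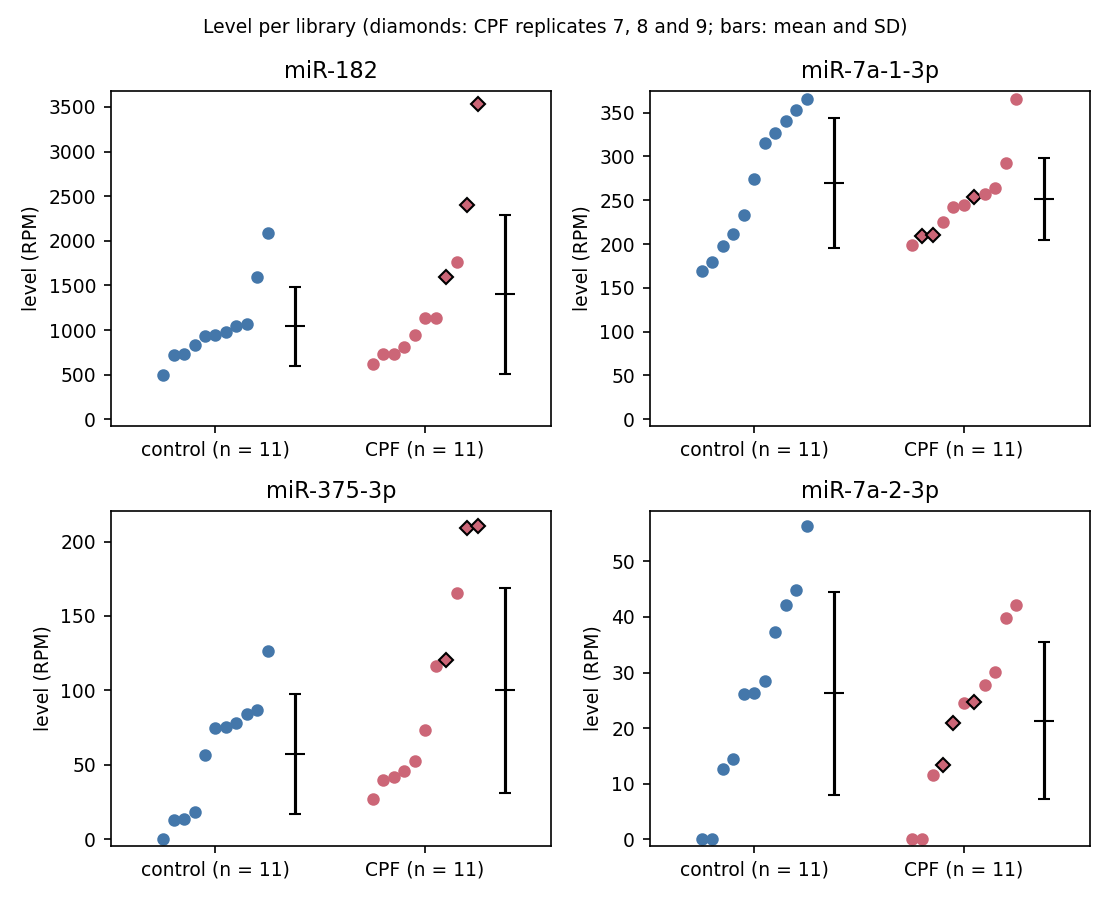
Level of miR-182, miR-7a-1-3p, miR-375-3p and miR-7a-2-3p (RPM, linear axes from 0) in each of 11 control and 11 CPF libraries, sorted by value, with the mean and SD beside each group. The highest miR-182 and miR-375-3p values are those of CPF replicates 8 and 9 (diamonds, with replicate 7), while the miR-7a-1-3p values of these libraries lie within the control range.

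Of the set, 4 names reached the filter for the test (at least 10 RPM in at least 11 libraries). Between CPF and control 0 of 4 passed the test, which does not show that their levels were equal. Over all 273 miRNAs tested, 0.733% were called by limma at an adjusted p under 0.05, namely miR-132-3p and miR-212-5p, both higher in CPF. 0 of the 4 had an unadjusted p under 0.05, against 6.59% of all tested. edgeR on recovered reads tested miR-182 and miR-7a-1-3p and called 0 of these 2, against 2.86% of all it tested (10.7% at an unadjusted p under 0.05). DESeq2 tested 6 names of the set and called 0 of 6, against 1.2% of all it tested (3.59% at an unadjusted p under 0.05).

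**Figure D3:**
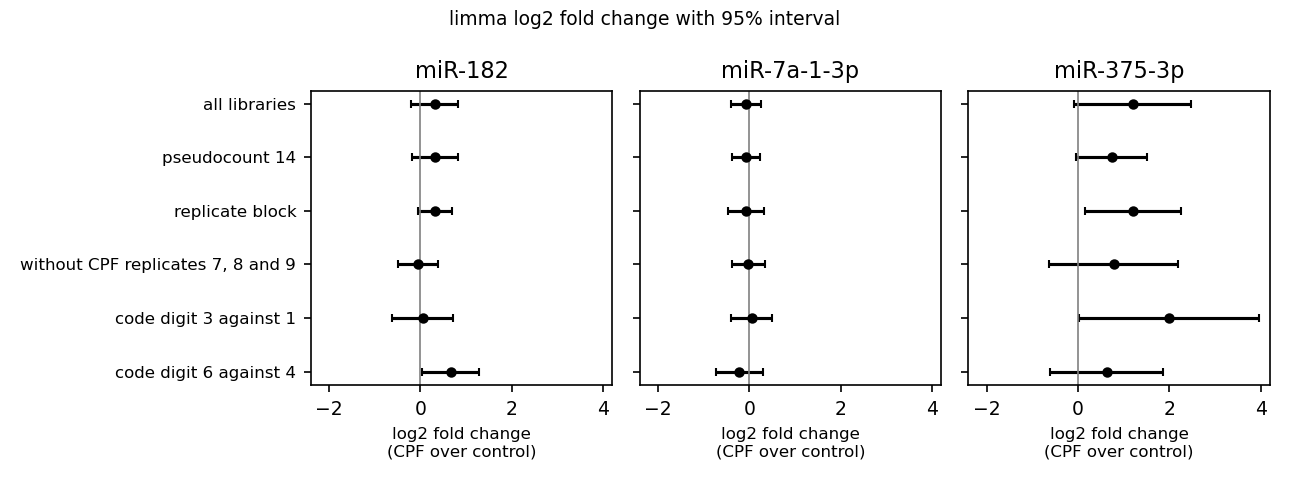
log2 fold change of CPF over control with its 95% interval for miR-182, miR-7a-1-3p and miR-375-3p under 6 settings of the limma test (rows). The estimate of miR-182 moves from 0.32 with all libraries to -0.050 without CPF replicates 7, 8 and 9, and that of miR-7a-1-3p runs from -0.22 to 0.055.

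The library codes in the labels begin with digit 1 or 4 in control and 3 or 6 in CPF, and its meaning is not stated in the labels. miR-375-3p averaged 34.6 ± 35.0 RPM at digit 1 (SD, n = 5) and 76.0 ± 36.2 at digit 4 (SD, n = 6), a log2 difference of 1.95 (95% CI 0.25 to 3.64, limma adjusted p = 0.917). In CPF it averaged 79.4 ± 52.2 RPM at digit 3 (SD, n = 6) and 125 ± 83.5 at digit 6 (SD, n = 5), a log2 difference of 0.58 (95% CI -1.12 to 2.28, limma adjusted p = 0.916). miR-182 averaged 1022 ± 424 RPM at digit 3 (SD, n = 6) and 1856 ± 1129 at digit 6 (SD, n = 5), a log2 difference of 0.74 (95% CI 0.04 to 1.44, limma adjusted p = 0.639). In control it averaged 1044 ± 622 RPM at digit 1 (SD, n = 5) and 1038 ± 291 at digit 4 (SD, n = 6), a log2 difference of 0.13 (95% CI -0.57 to 0.83, limma adjusted p = 0.987). None of these 4 differences passed. limma called 0% of the 273 miRNAs in either contrast, with 3.66% and 6.96% at an unadjusted p under 0.05. edgeR called 0% (3.57% unadjusted) between digits 4 and 1, and 0.714% (11.4% unadjusted) between digits 6 and 3. CPF replicates 7, 8 and 9 all carry digit 6. miR-7a-1-3p averaged 265, 271, 274 and 227 RPM at digits 1, 3, 4 and 6.

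Set against each other, digit 3 (CPF) and digit 1 (control) gave log2 fold changes of 0.052 for miR-182 and 1.99 for miR-375-3p, and digits 6 and 4 gave 0.66 and 0.63 (limma adjusted p 0.745 to 0.973 over these 4 values). The pairing of digits across groups is not given in the labels. Whether the effect of CPF differed by digit was not tested.

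Other cell types were followed through 7 lists of miRNAs, and the named members were compared with the summed level of each list over the 22 libraries. This gave 24 correlations of within-group deviations with the 3 pairs among miR-182, miR-7a-1-3p and miR-375-3p, and 2 of 24 passed (permutation test, 100000 resamples, Benjamini-Hochberg adjusted). Both were with the choroid plexus and ependyma list.

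For miR-375-3p and that list, Pearson's r was 0.49 (permutation p = 4.0e-05, adjusted p = 0.00096) and Spearman's rho 0.76 (permutation p = 3.0e-05, adjusted p = 0.00072). Without the 2 libraries of most extreme miR-375-3p, control replicates 4 and 5, r was 0.62 (permutation p = 0.00065, adjusted p = 0.0156). It was 0.78 among the control libraries (permutation p = 0.00226, adjusted p = 0.0542) and 0.75 among the CPF libraries (permutation p = 0.00461, adjusted p = 0.0369). Without CPF replicates 7, 8 and 9 it was 0.57 (permutation p = 0.00332, adjusted p = 0.0797). The relation thus had the same sign in each group and without the 3 high libraries, and passed in some of these settings.

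For miR-182 and the list, r was 0.68 (permutation p = 0.00247, adjusted p = 0.0296) and rho 0.55 (permutation p = 0.0119, adjusted p = 0.143). Without CPF replicates 8 and 9, the most extreme in miR-182, r was 0.27 (permutation p = 0.250, adjusted p = 0.665). Among the control libraries it was 0.21 (permutation p = 0.545), among the CPF libraries 0.82 (permutation p = 0.00287, adjusted p = 0.0369), and without CPF replicates 7, 8 and 9 it was 0.09 (permutation p = 0.724). The relation of miR-182 with the list thus rests on those libraries. For miR-7a-1-3p, r was -0.28 (permutation p = 0.105, adjusted p = 0.419) and rho -0.22 (permutation p = 0.251).

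**Figure D4:**
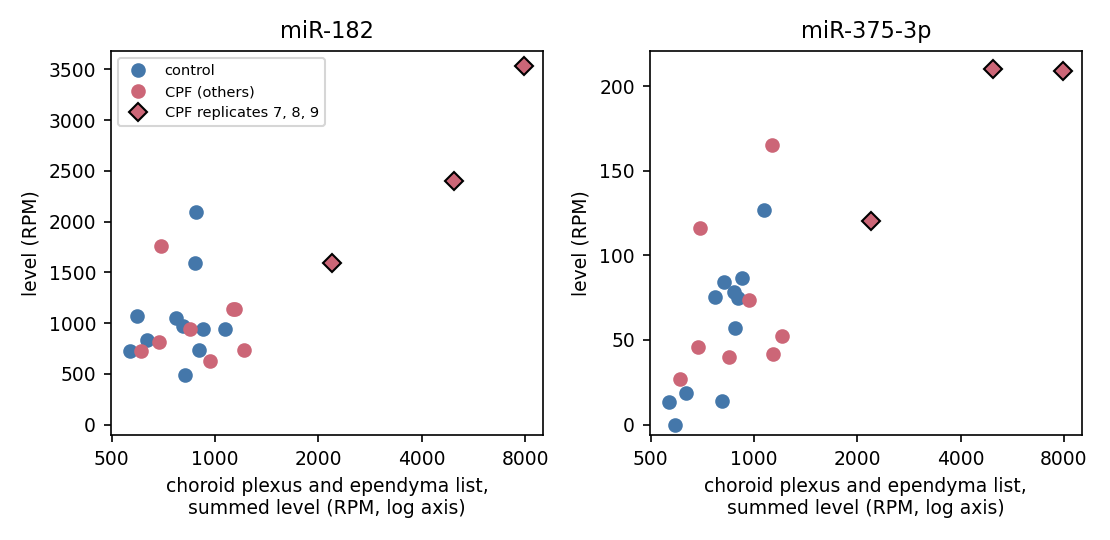
Level of miR-182 (left) and miR-375-3p (right), in RPM on a linear axis, against the summed level of the choroid plexus and ependyma list (RPM, log axis), 1 point per library. CPF replicates 7, 8 and 9 (diamonds) stand at 2192 to 7922 RPM on the list axis, and replicates 8 and 9 hold the highest miR-182 values. Replicate 7 stands at 1590 RPM of miR-182, below control replicate 2 at 2091. For miR-375-3p r was 0.57 without the diamonds and no longer passed (permutation test, adjusted p = 0.0797).

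The 3 pairs within the set did not pass over all 22 libraries. miR-182 and miR-375-3p had r = 0.29 (permutation p = 0.154, adjusted p = 0.463) and rho 0.38 (permutation p = 0.0820). Their r was 0.79 among CPF libraries (permutation p = 0.00357, adjusted p = 0.0369) and -0.0090 among control libraries (permutation p = 0.977). Without CPF replicates 8 and 9 it was 0.13. miR-182 and miR-7a-1-3p had r = 0.24 (permutation p = 0.261, adjusted p = 0.570) and rho 0.29, with 0.58 among control libraries and -0.12 among CPF libraries. It was 0.54 without CPF replicates 8 and 9. miR-375-3p and miR-7a-1-3p had r = -0.06 (permutation p = 0.831, adjusted p = 0.886) and rho -0.16, and -0.38 without control replicates 4 and 5. These names are parts of a fixed total in each library, so their levels are not independent of each other.

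The 5 miRNAs most like miR-375-3p were miR-138-5p (r = 0.55), a synaptic regulator, then miR-34c-5p (r = 0.54), miR-191a-3p (r = 0.50), miR-450a-5p (r = 0.47) and miR-1298 (r = 0.46). With CPF replicates 7, 8 and 9 left out, r was 0.63 for miR-138-5p, 0.51 for miR-34c-5p and 0.37 for miR-1298.

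In the choroid plexus and ependyma list 0 of 7 tested members passed between CPF and control. Their median log2 fold change was 1.61 beside 0.02 over all tested. It includes miR-34b-3p, miR-34b-5p and miR-34c-3p, which were under the floor of 3 reads on average, so its size is not read. Ranked on the 22 libraries together, the 2 highest members were miR-1298 (133 ± 77.6 RPM in control, 795 ± 1243 in CPF) and miR-34c-5p, which is known from ciliated cells (332 ± 105 and 579 ± 471). In control, miR-34c-5p and miR-204-5p (270 ± 83.2 RPM) were both above miR-1298. The list averaged 5025 RPM in CPF replicates 7, 8 and 9 and 848 RPM in the other 19 libraries. It summed to 803 ± 154 RPM in control and 2033 ± 2318 in CPF (SD, n = 11 each), so it moved with the miR-182 and miR-375-3p means. Its part in those differences was not tested. Leaving out the 3 libraries is no such test, since they were singled out by values in these data.

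The neuron list had 2 of 22 tested members that rose, miR-132-3p (698 ± 159 to 1292 ± 362 RPM) and miR-212-5p (820 ± 106.3 to 1101 ± 129, SD, n = 11 each), with a median log2 fold change of 0.02 over the list. The list summed to 57284 to 82078 RPM in control and 59736 to 83016 in CPF, with miR-9a-5p at 52435 ± 7700 and 50852 ± 7160 RPM and miR-128 at 7674 ± 1352 and 7558 ± 1626. Neuronal miRNAs of brain tissue were thus present in all libraries. miR-143-3p, which stands on the list of vessel wall and muscle miRNAs, made up 26.0% of the RPM in control and 26.8% in CPF, and the other members of that list were far lower, with miR-145-5p at 188 and 201 RPM. None of the tested members passed in the oligodendrocyte list (4 tested, miR-338-3p 55889 ± 11908 and 50330 ± 13800, miR-338-5p 2313 ± 350 and 2101 ± 453), the list of vessel wall and muscle miRNAs (5 tested, miR-143-3p 259666 ± 17535 and 267848 ± 26205, miR-126a-3p 1575 ± 186 and 1600 ± 180.7) or the microglia list (5 tested, miR-21-5p 2599 ± 290 and 2575 ± 392, miR-21-3p 576 ± 90.1 and 520 ± 99.3).

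The miR-200 family, which like miR-375 and miR-7 marks epithelial and neuroendocrine cells, was low. It summed to 44.9 to 182.8 RPM in control and 55.6 to 230 in CPF, of which miR-141-3p made up 80.5 ± 32.2 and 109 ± 48.8 RPM (SD, n = 11 each). miR-429 averaged 10.4 and 4.77 RPM, and miR-200a-3p and miR-200b-3p were lower. Only miR-141-3p entered the test (log2 fold change 0.44, limma adjusted p = 0.788). The r of miR-182 with this family was 0.48 (permutation p = 0.0267, adjusted p = 0.160). Red blood cell miRNAs summed to at most 65.9 RPM in control and 79.5 in CPF, with miR-144-5p and miR-144-3p under the floor on average.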

How the data were processed

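11 CPF and 11 control small RNA libraries of rat hippocampus were compared. The deposited values are RPM per miRNA name, per the file headers, scaled by the authors to the reads assigned to miRNAs, since each full file sums to the same total. CASAVA 1.8.2, cutadapt 1.2, Bowtie, Partek 6.6 and the build rn4 appear in the submitters' processing notes, without roles. Which miRNA annotation was used, and whether strand was, is not given in the sources used here.

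A full file has 484 rows and 468 names, and rows of a repeated name were summed. For control replicate 2 only 448 rows were given, and the 36 absent names were treated as missing there, none of them in the set. Whole reads were recovered from the step between low values, and within 0.02 RPM 92.8 to 97.4% of the values were whole. Every pair of libraries differed by more than sampling noise (chi-square over degrees of freedom at least 2.42).

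The two-sided test was limma 3.58.1 with a trend (R 4.3.3) on log2(RPM + 1). It covered the 273 miRNAs that reached 10 RPM in 11 or more libraries, adjusted after Benjamini and Hochberg over all 273, with a threshold of 0.05. edgeR 4.0.16 and DESeq2 1.42.0 on recovered reads, other pseudocounts, filters and scalings, the replicate number as a block, code digits and leaving out libraries were alternatives. Correlations used scipy 1.17.1 and names with at least 5 reads per library. The fits were tested on simulated data. The named miRNAs are the whole set, the 5 most like each of miR-182, miR-7a-1-3p and miR-375-3p (mean at least 70 RPM), miR-671, seed sharers, the 2 most abundant of each list and those that passed. miR-3553 is named under this rule. The members and lists were chosen with earlier results of these data known.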

Additional observations from a re-analysis of the deposited data

How the results depend on the processing

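0 members of the set were called in any setting run. All miRNAs called numbered 2 with limma and 4 with edgeR (TMM), 4 with edgeR (RLE), 5 with DESeq2, 1 with code digit 3 against 1 and 1 with digit 6 against 4, the last pair with fewer samples. Leaving out each library in turn gave 2 to 3, with 0 of the set in all 22 cases. The log2 fold change of miR-182 then ran from 0.16 to 0.43, that of miR-375-3p from 0.68 (without control replicate 5) to 1.38 and that of miR-7a-1-3p from -0.13 to -0.02. In the other settings miR-182 fell to -0.050, near 0, without CPF replicates 7, 8 and 9, which include its highest CPF values. miR-7a-1-3p turned to 0.055 for digit 3 against 1 (the cause was not tested). miR-375-3p kept its direction in 10 of 10 settings that gave it a value. These settings reuse the same libraries, and the other filters and the replicate block could not change the estimate of 1.197. They are therefore not separate support, and the medians were 74.9 RPM in control and 73.4 in CPF. edgeR gave miR-375-3p no value, since its read filter removed it. Between digits 4 and 1, miR-182 differed by -0.045 with edgeR against 0.13 with limma. Between digits 6 and 3, edgeR called 1 miRNA, against 0. Of 24 correlations, 2 passed as reported, 2 with a pseudocount of 14, 3 among CPF libraries, 1 without the 2 most extreme libraries, 0 among control libraries and 0 without CPF replicates 7, 8 and 9, the last chosen after seeing the data and with fewer samples. The correlation of miR-182 with miR-375-3p turned to -0.0090 among control libraries, that of miR-182 with miR-7a-1-3p to -0.12 among CPF libraries, and that of miR-375-3p with miR-7a-1-3p to 0.011 without CPF replicates 7, 8 and 9. With the replicate number as a block, 2 miRNAs passed and 0 of the set, and miR-375-3p had a log2 fold change of 1.197 (95% CI 0.14 to 2.25, limma adjusted p = 0.576). Same-numbered libraries are not said in the labels to belong together. Their deviations correlated at -0.09 to 0.19, and 1 of 11 correlated best with its own number. Depth limits miR-7a-5p, miR-7a-2-3p and miR-96-5p, which were under the floor of 3 reads on average.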

Other observations

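The listing of miR-183-5p at 0 beside its opposite-strand partner miR-3553 had parallels among names outside the set. By RefSeq positions, 27 pairs of listed names had mature sequences overlapping by at least 15 bases on opposite strands. In 9 of the 27 the lower name was at 0 in every library that held it, and these 9 are among the 14 names at 0 throughout. Examples, chosen after their values were seen, are miR-378a-3p at 0 beside miR-3557-5p at 3122 RPM, and miR-505-3p at 0 beside miR-3589 at 47.4 RPM. In 6 of the 27 pairs both names had equal values in every library that held them, as did miR-210-3p and miR-3574 at 53.8 RPM. The RefSeq positions are of GRCr8 and were used only for which sequences overlap.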
